A study of Mus musculus with 2 samples.

Results

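*Gas5* (ENSMUSG00000053332.7) is a non-coding host gene on the plus strand of mouse chromosome 1, at chr1:162964553-162968670 of mm9. *Gas5* and every GENCODE M1 gene of type snoRNA lying within it on the same strand were examined, which gave 9 snoRNA genes among the 1552 annotated in the genome, and 10 genes of 37310 in all. The RNA came from mouse R1 male ESCs at passage 18, kept undifferentiated with LIF on mitomycin-treated MEF feeders, and from NPCs made from the same line. For the NPCs, cells spent 4 days without LIF as embryoid bodies, were replated on poly-L-ornithine and fibronectin in ITS medium, and were gathered on day 7. Neither group carried an added allele or transgene, and no step that sorted the NPCs or removed feeder cells is stated. Poly(A) RNA and rRNA were depleted, and the remaining non-polyadenylated (NPA) RNA was sequenced strand by strand as 1 library per cell type. Each ratio of NPC to ESC in this text therefore compares 2 libraries, not 2 cell types, and its 95% interval covers counting error only, since PCR reads without molecular identifiers are not independent molecules.

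The deposited placements total 4271306 reads in ESCs and 4399729 in NPCs, so that 1 read is worth 0.234 and 0.227 RPM, the unit of levels scaled by the library total. Levels of 8 pluripotency markers were lower in the NPC library, 6 of them by more than 2-fold, with a sum of 1956 RPM in ESCs and 565 RPM in NPCs. Neural progenitor markers gave 149 and 210 RPM in sum, of which *Vim* alone gave 110 and 160 RPM. Of the 5 with at least 10 reads, 4 were higher in NPCs and *Msi1* was lower (99 and 60 reads). Of all genes with at least 10 reads, 37.1% were lower in NPCs by any amount. By more than 2-fold, 13.3% of them were lower and 25.5% higher. *Fabp7* was at 0 reads in ESCs and 2 reads in NPCs, and *Pax6* at 1 and 12. All 8 extraembryonic endoderm markers were higher in the NPC library by more than 2-fold, and their sum went from 401 to 9907 RPM. The 6 fibroblast markers, which feeder cells would carry, summed to 42.6 and 59.1 RPM. Of these, 5 were higher in NPCs, among them *Col1a2* (51 and 165 reads), and *Thy1* was lower (79 and 12 reads). How far the mix of cells in the NPC library contributes to the *Gas5* values was not tested, and in bulk RNA fewer cells of a type cannot be told apart from less RNA per cell.

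Most vertebrate snoRNAs are not transcribed from promoters of their own. They lie in introns of a host gene, and after splicing and debranching of the intron they are trimmed by exonucleases up to the ends that their proteins cover. C/D box snoRNAs, to which all members of the *Gas5* group belong, carry a C box near the 5′ end and a D box near the 3′ end, bind fibrillarin, NOP56, NOP58 and the 15.5K protein, and guide 2′-O-methylation, mainly of rRNA. *Gas5* (growth arrest-specific 5) is the textbook example of a host whose spliced RNA has no conserved open reading frame. That RNA starts with a 5′ terminal oligopyrimidine tract, is degraded by nonsense-mediated decay when it is translated, builds up in growth-arrested cells, and can bind the glucocorticoid receptor.

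The sequences of 6 members are shown, namely the 4 with the most reads, the member with the fewest reads and SNORD79, in which the reads differed from the reference. They are read from mm9, 5′ to 3′ on the plus strand of chromosome 1, with the C core TGATG and the D box CTGA in capitals. Names are spelled as in GENCODE M1, which gives some of them in capitals.
SNORD75: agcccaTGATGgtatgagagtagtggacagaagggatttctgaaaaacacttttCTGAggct
SNORD24: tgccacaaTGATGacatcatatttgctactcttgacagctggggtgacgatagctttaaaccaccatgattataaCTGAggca
Snord47: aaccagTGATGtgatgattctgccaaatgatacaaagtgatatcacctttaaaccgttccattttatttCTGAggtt
SNORD81: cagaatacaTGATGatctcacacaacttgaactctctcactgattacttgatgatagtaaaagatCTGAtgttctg
SNORD78: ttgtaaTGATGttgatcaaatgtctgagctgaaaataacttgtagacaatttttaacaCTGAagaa
SNORD79: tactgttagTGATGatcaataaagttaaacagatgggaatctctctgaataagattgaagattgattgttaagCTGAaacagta

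SNORD75 lies at chr1:162965981-162966042, SNORD24 at chr1:162966188-162966270, Snord47 at chr1:162968213-162968289, SNORD81 at chr1:162968439-162968514, SNORD78 at chr1:162967115-162967180 and SNORD79 at chr1:162967487-162967570. All 9 members had TGATG beginning within the first 20 bases and CTGA within the last 15 bases of the annotated gene, read on the strand of the gene with no overlap between the motifs. The same letters were found in 288 of the 346 annotated C/D genes (83.2%) and in 2 of the 1031 H/ACA genes (0.194%). Between the 2 motifs lay 41 bases in SNORD44 and up to 62 bases in SNORD24. GC content ran from 28.8% in SNORD78 to 45% in SNORD74. All stretches of 48 nt in the 9 genes occur once in mm9 as exact matches. The authors' alignment allowed mismatches, so exact uniqueness does not separate reads that differ from mm9 from those of similar paralogs. In SNORD79, 41 of 185 ESC reads and 16 of 76 NPC reads had a sequence that occurs once in mm9. The others differed from mm9 at their placement, most of them at the site T16C described below. The mm9 sequence at the placement occurred once for all 185 and 76 reads.

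The *Gas5* transcript with the most annotated exons (ENSMUST00000162558.1) has 12 exons and 11 introns, and each of the 9 snoRNAs lies in an intron of its own. Introns 1, 2, 3, 5 and 6 hold SNORD74, SNORD75, SNORD24, SNORD44 and SNORD78 in this order. SNORD79 is in intron 8, SNORD77 in intron 9, Snord47 in intron 10 and SNORD81 in intron 11, while introns 4 and 7 hold none. In 7 of the introns the snoRNA ends 65 to 78 bases before the 3′ splice site. SNORD74 and SNORD77 end 278 and 313 bases before it, in the longest introns of the gene (557 and 447 nt). The remaining 3 members lie at chr1:162965525-162965604 (SNORD74), chr1:162966813-162966872 (SNORD44) and chr1:162967732-162967812 (SNORD77).

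**Figure D1:**
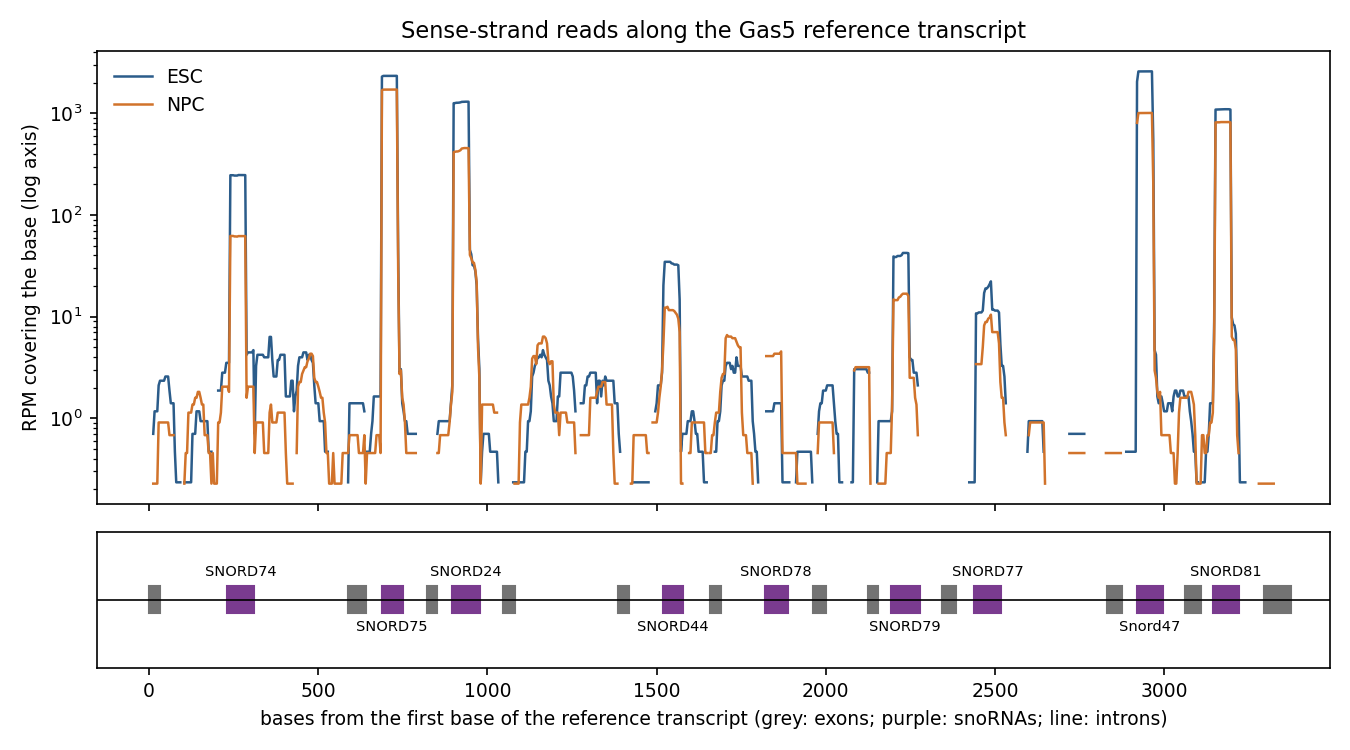
Reads on the plus strand covering each base of *Gas5*, in RPM on a log axis, for ESCs (blue) and NPCs (orange), above a map of exons (grey boxes) and snoRNAs (purple boxes) by distance in bases from the first base of the reference transcript, with gaps where no read lies. The 5 tallest plateaus, over SNORD74, SNORD75, SNORD24, Snord47 and SNORD81, are the length of 1 read and stand far above the exons and introns in both libraries.

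Nearly all reads over *Gas5* came from its snoRNAs. In ESCs they took 32911 of the gene's reads (99.4%), or 0.771% of the library, and in NPCs 18135 reads (99.0%), or 0.412%. On the opposite strand there were 0 reads over the gene in both libraries, which allows up to 3 reads in each. The *Gas5* snoRNAs made up 8.91% of all C/D snoRNA reads in ESCs (8.81 to 9.0%) and 7.13% in NPCs (7.03 to 7.23%).

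Levels differed among snoRNAs of this single host by over 2 orders of magnitude. Snord47 had the most reads in ESCs, 11092 against 4453 in NPCs, and SNORD75 the most in NPCs, 7566 against 10021 in ESCs. SNORD24 had 5582 and 2012 reads in ESCs and NPCs, and SNORD81 had 4705 and 3623. These 4 held 95.4% of the *Gas5* snoRNA reads in ESCs and 97.3% in NPCs. SNORD74 followed with 1073 and 284 reads. SNORD79 (185 and 76 reads), SNORD44 (151 and 55) and SNORD77 (96 and 46) were lower by a further step, and SNORD78 had 6 and 20 reads. Ranked among the 346 C/D genes by reads, Snord47 was number 6 in ESCs and 15 in NPCs, SNORD75 number 7 and 8, and SNORD78 number 160 and 141.

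Per length, SNORD75 was the highest in both libraries, at 37841 RPKM (RPM per kilobase) in ESCs and 27736 RPKM in NPCs. Snord47 was next, at 33725 and 13144 RPKM. SNORD78 was the lowest, at 21.3 and 68.9 RPKM, so that the span from highest to lowest was 1778-fold in ESCs and 403-fold in NPCs. Such a span was also present in *Snhg1*, another non-coding host, whose 8 snoRNAs ran from 42 to 117419 reads in ESCs, and less so in the ribosomal protein gene *Rpl13a*, whose 4 snoRNAs ran from 2123 to 14323 reads.

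**Figure D2:**
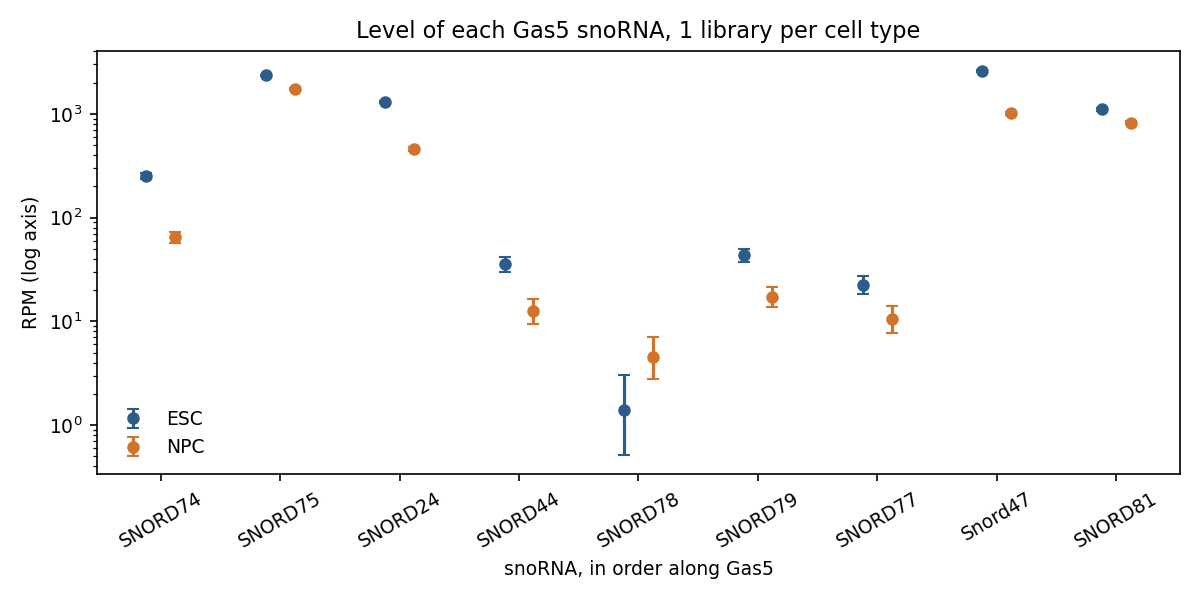
Level of each *Gas5* snoRNA in RPM (log axis), in order along the gene, in the ESC (blue) and NPC (orange) libraries, with exact Poisson 95% intervals that are narrower than the points for the abundant members. The ESC point is above the NPC point for all members but SNORD78, whose 2 points rest on 6 and 20 reads.

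The level was lower in the NPC library for 8 of the 9 snoRNAs, all 8 with intervals below 1. It was lower by more than 2-fold for 6 of the 9 and higher by more than 2-fold for 1. The whole interval was past 2-fold for 4 of these 6, and not for the 1 higher member (1.25 to 9.85). Of all 14859 genes with at least 10 reads, 13.3% were lower in NPCs by more than 2-fold, 25.5% were higher by more than 2-fold and 37.1% were lower by any amount. For the 153 such C/D genes outside *Gas5* these shares were 21.6%, 7.19% and 57.5%. Over the 9 members the NPC to ESC log2 ratio had a median of −1.33, against −0.22 over the other C/D genes and 0.35 over all genes. Over the 139 H/ACA genes with at least 10 reads the median was lower, at −1.63. Summed over the members, the level went from 7705 RPM in ESCs to 4122 RPM in NPCs, a ratio of 0.535 (0.525 to 0.545), or −0.90 on the log2 scale. As the median of all genes lay at 0.34 in the NPC direction with 1 read added, the log2 ratio of the sum relative to that median was −1.24. With repeated starts collapsed to 1 read, 0 of the 9 snoRNAs were more than 2-fold apart and the log2 ratio of the sum was −0.43. The members then had only 4 to 33 distinct starts each, so that this count cannot follow their abundance.

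The members did not share a single ratio. SNORD74 had the lowest, with 251 RPM in ESCs and 64.5 RPM in NPCs, a ratio of 0.257 (0.225 to 0.293). It stood apart from the next member, SNORD24, which went from 1307 to 457 RPM, a ratio of 0.350 (0.332 to 0.368). SNORD44 (ratio 0.354, 0.255 to 0.484), Snord47 (0.390, 0.376 to 0.404), SNORD79 (0.399, 0.301 to 0.524) and SNORD77 (0.465, 0.320 to 0.668) followed. Within this run of 5 the intervals of neighbours overlapped, but those of SNORD24 and Snord47 did not. The interval of SNORD44 also overlapped that of SNORD74, so SNORD74 was not apart from every other member.

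SNORD75 and SNORD81 formed a separate step, with much smaller differences between the libraries. SNORD75 went from 2346 to 1720 RPM, a ratio of 0.733 (0.711 to 0.755), and SNORD81 from 1102 to 823 RPM, a ratio of 0.748 (0.716 to 0.781). Their intervals overlapped each other and lay above those of the 6 members before them. They are not neighbours in the gene, as SNORD75 is in intron 2 and SNORD81 in intron 11, next to Snord47 in intron 10. SNORD78, the only member that was higher in NPCs, went from 1.40 to 4.55 RPM, a ratio of 3.24 (1.25 to 9.85) from 26 reads in all. Those reads began at 4 positions in each library, 17 of the 20 NPC reads at the same one, and the log2 ratio of 1.69 became −0.27 when each start was counted once.

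**Figure D3:**
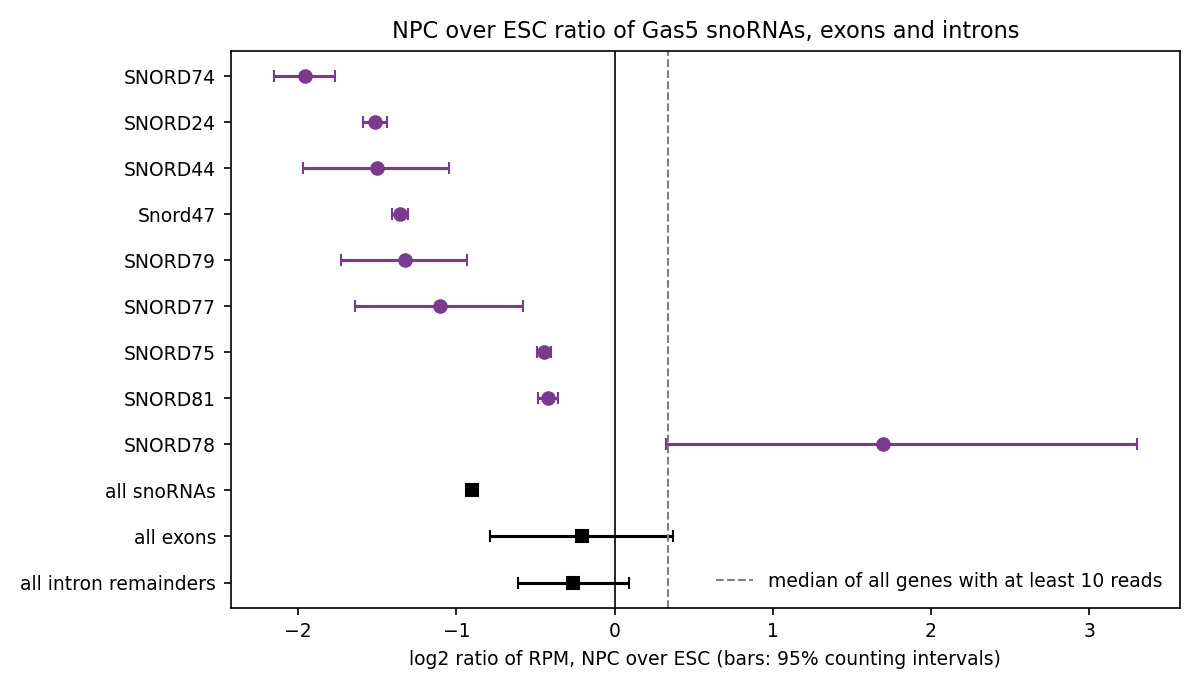
Log2 ratio of RPM, NPC over ESC, with 95% counting intervals, for each *Gas5* snoRNA in order of its ratio (purple circles) and for the summed snoRNAs, exons and intron remainders (black squares). The solid line marks equal RPM and the dashed line the median of all genes (0.34). The points of SNORD75 and SNORD81 lie between those of the 6 lower snoRNAs and those of the exons and introns. The intervals of SNORD75 and SNORD81 fall within the exon and intron intervals, which include 0.

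Ratios between members of the same library do not depend on how libraries are scaled. SNORD75 had 2.13 reads per SNORD81 read in ESCs (2.06 to 2.21) and 2.09 in NPCs (2.01 to 2.17), intervals that overlapped. Snord47 had 2.36 reads per SNORD81 read in ESCs (2.28 to 2.44) and 1.23 in NPCs (1.18 to 1.28). For these snoRNAs of adjacent introns the intervals of the 2 libraries thus did not overlap. The intervals treat reads as independent, which PCR copies are not.

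Order by reads changed for 2 pairs. Snord47 had 1.11 reads per SNORD75 read in ESCs (1.08 to 1.14) and 0.589 in NPCs (0.567 to 0.611). SNORD24 had 1.19 reads per SNORD81 read in ESCs (1.14 to 1.23) and 0.555 in NPCs (0.526 to 0.587). Snord47 against SNORD79 was at 60 in ESCs (51.8 to 69.7) and 58.6 in NPCs (46.7 to 74.5), with overlapping intervals.

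Reads of a snoRNA began at almost the same base in both libraries. The most frequent start lay 1 to 8 bases after the annotated start, and always 4 or 5 bases before the C core TGATG. In SNORD74, whose annotated gene begins furthest upstream, the start was at base 9 of the sequence, and in SNORD75 and Snord47 it was at base 2. Within 1 base of the most frequent start lay 99.8% of the SNORD75 reads in both libraries, 99.6% of the Snord47 reads in both, and 97.7% and 97.9% of the SNORD81 reads. These 3 were the tightest members. Over the *Gas5* members with at least 50 reads the median share was 96.6% in ESCs (8 genes) and 93.7% in NPCs (7 genes), and over other such C/D genes it was 97.6% (99 genes) and 97.0% (98 genes). Reads are 48 nt and the snoRNAs 60 to 84 nt, so the 3′ ends of the snoRNAs were not measured. The RNA was cut with RNase III before adaptor ligation, so a read start need not be an RNA end present in the cell. Which starts came from this step was not tested.

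Some reads began elsewhere, and among members with at least 10 reads in each library their share was highest in SNORD77. SNORD77 had 46.9% of its ESC reads (36.6 to 57.3%) and 32.6% of its NPC reads (19.5 to 48%) within 1 base of the usual start. A further 52.1% and 67.4% began downstream, most often at 21 to 28 bases past it. In SNORD79 the downstream share was 9.19% in ESCs (5.44 to 14.3%) and 14.5% in NPCs (7.45 to 24.4%). SNORD24 had 196 such downstream reads in ESCs, a share of 3.51% (3.04 to 4.03%), and 183 in NPCs, a share of 9.10% (7.87 to 10.4%). At a single base, 24 past the usual start of SNORD24, lay 54 ESC and 70 NPC reads. SNORD44 instead had reads that began upstream in the intron, 12 of 151 in ESCs (7.95%) and 13 of 55 in NPCs (23.6%), with intervals of 4.17 to 13.5% and 13.2 to 37.0% that just overlapped.

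**Figure D4:**
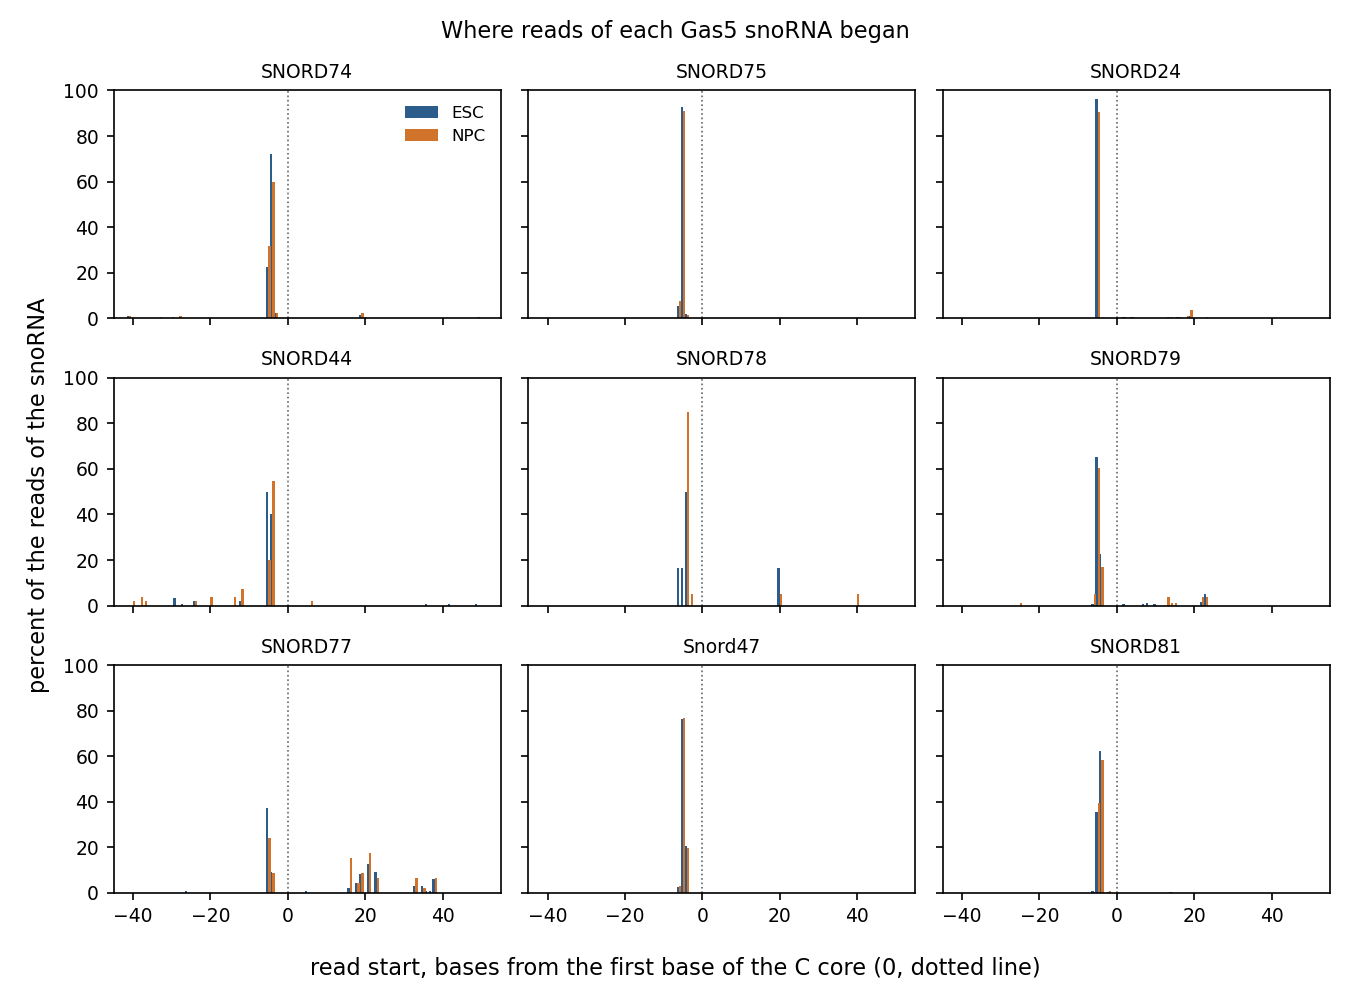
Start positions of the reads of each *Gas5* snoRNA, as a percent of its reads in the ESC (blue) and NPC (orange) libraries, by distance in bases from the first base of the C core (dotted line). The tallest bars stand 4 or 5 bases before the C core in all panels, and SNORD77 shows further groups of starts downstream.

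The reference transcript outside the snoRNAs had few reads, and their ratio was nearer to 1. Its exons had 56 ESC and 50 NPC reads, 13.1 and 11.4 RPM, a ratio of 0.867 (0.580 to 1.29). The intron remainders had 150 and 129 reads, 35.1 and 29.3 RPM, a ratio of 0.835 (0.655 to 1.06). Both intervals include 1 and lie above that of the snoRNA sum. For the introns this depends on the processing, since under 5 alternatives, among them scaling by the all-gene median (log2 ratio −0.60, −0.95 to −0.25), the interval lay below equal levels. Per exon or intron read there were 160 snoRNA reads in ESCs (139 to 184) and 101 in NPCs (87.4 to 118), intervals that did not overlap. Per exon read alone the values were 588 (452 to 778) and 363 (275 to 489), with intervals that overlapped, and with repeated starts collapsed they were 4.67 and 4.31.

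Exon reads measure spliced *Gas5* RNA poorly here. The exons are 28 to 81 nt long, 3 of the 12 can hold a read of 48 nt, and no step of the stated alignment placed reads across splice junctions. Of the exon reads, 51 in ESCs and 48 in NPCs crossed into the neighbouring intron, and 5 and 2 lay within 1 exon. The libraries were moreover made from RNA depleted of poly(A) RNA, the fraction in which a spliced and polyadenylated host RNA is found.

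Reads outside the snoRNAs were unevenly spread along the gene. Intron 4, which holds no snoRNA, had 49 reads in ESCs and 50 in NPCs, from 25 and 21 starts. Intron 1 had 63 and 36 reads, a ratio of 0.555 (0.358 to 0.849), of which 57 and 28 followed SNORD74. Intron 6 had 22 and 25 reads, 21 and 24 of them before SNORD78.

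Intron 9 is the second longest intron and had 7 and 6 reads. Introns 3, 5, 7 and 10 had 0 to 7 reads each. Introns 2, 8 and 11 had 0 reads in both libraries, but only 18 to 26 positions in each can start a read that touches neither exon nor snoRNA. Among the exons, exon 8 had the most assigned reads in both libraries (12 and 14), the others had 0 to 10 in each, and exons 3 and 9 had 0 in both. Exon 8 spans 2125 to 2152 bases from the transcript start, where ESC cover was 2.81 RPM at 2128 and 0 at 2132. Its ESC reads thus lay mostly in intron 7 and reached only the first bases of the exon.

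To allow for the short pieces, reads were set against the number of possible start positions. From exon 1 to exon 8 the level was 2.77 RPM per 100 positions in ESCs (2.39 to 3.19) and 2.29 in NPCs (1.95 to 2.67). From intron 8 to exon 12 it was 0.518 in ESCs (0.296 to 0.841) and 0.534 in NPCs (0.311 to 0.856). Both libraries thus had more reads in the 5′ part outside the snoRNAs, although Snord47 and SNORD81, of the highest members, lie in the 3′ part. The boundary was chosen after the values were seen, and the authors filtered out reads in repeats, whose part in this difference was not tested.

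The reads matched the mm9 bases at nearly all positions. In SNORD79 a substitution T16C, counted from the first annotated base at 1, was carried by 143 of 165 ESC reads (86.7%, 80.5 to 91.5%) and 60 of 64 NPC reads (93.8%, 84.8 to 98.3%). It lies just past the C core, and the reads with the reference base numbered 22 and 4. In introns 1, 4 and 6 and exon 2, 6 sites (C-to-G, C-to-T, G-to-T, T-to-C or G-to-A) differed from mm9 in all of their 1 to 11 reads per library, and a site in intron 2 in 2 of 3 ESC and 2 of 2 NPC reads.

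*Gas5* was next set beside other genes that hold at least 2 snoRNAs on their strand. Of 71 such hosts, 52 had at least 50 snoRNA and 50 exon reads in each library. Those most like *Gas5* in the pair of log2 ratios, −0.90 for the snoRNAs and −0.21 for the exons, were *Snhg1* (−0.92 and −0.21, distance 0.0187), *Gnl3*, which encodes the nucleolar protein nucleostemin (−0.85 and −0.19, distance 0.0531) and *2810403A07Rik* (−1.01 and −0.06, distance 0.184). This likeness rests on 2 ratios from 2 libraries. *Snhg12* had a much lower snoRNA ratio, 0.167, with an exon ratio of 1.48, and *Rpl13a* had 0.654 and 0.514.

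The summed snoRNA log2 ratio of *Gas5*, −0.90, lay near the median of −0.83 over the 52 hosts. By this ratio 30 hosts were above *Gas5* and 21 below it. The snoRNA log2 ratio minus the exon log2 ratio was −0.70 for *Gas5* and had a median of −0.97 over the 52 hosts, 32 of which were below *Gas5* and 19 above it. In snoRNA reads per exon read *Gas5* stood near the top of the 52, with 588 in ESCs and 363 in NPCs against medians of 6.63 and 3.42. Of these hosts *Snhg1* (653) and *Snhg12* (927) were above it in ESCs and *Snhg1* (397) in NPCs. Of hosts with fewer exon reads, *1110038B12Rik* (1031 and 727) was above it in both libraries and *9430008C03Rik* (1007) in ESCs. These values were not divided by length or by the number of snoRNAs. *Gas5* sums 9 snoRNAs, and 3 of its 12 exons can hold a read, while *Snhg1* has 8 snoRNAs and 4 of 4 such exons. Within 1 exon lay 5 of the 56 ESC exon reads of *Gas5* and 228 of the 234 of *Snhg1*. How far this sets the rank of *Gas5* was not tested. The spread of ratios among members was also present in *Snhg1*, from 0.360 to 1.48 over 8 snoRNAs, in *Snhg12*, from 0.159 to 1.03 over 4, and in *Rpl13a*, from 0.298 to 0.739 over 4.

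**Figure D5:**
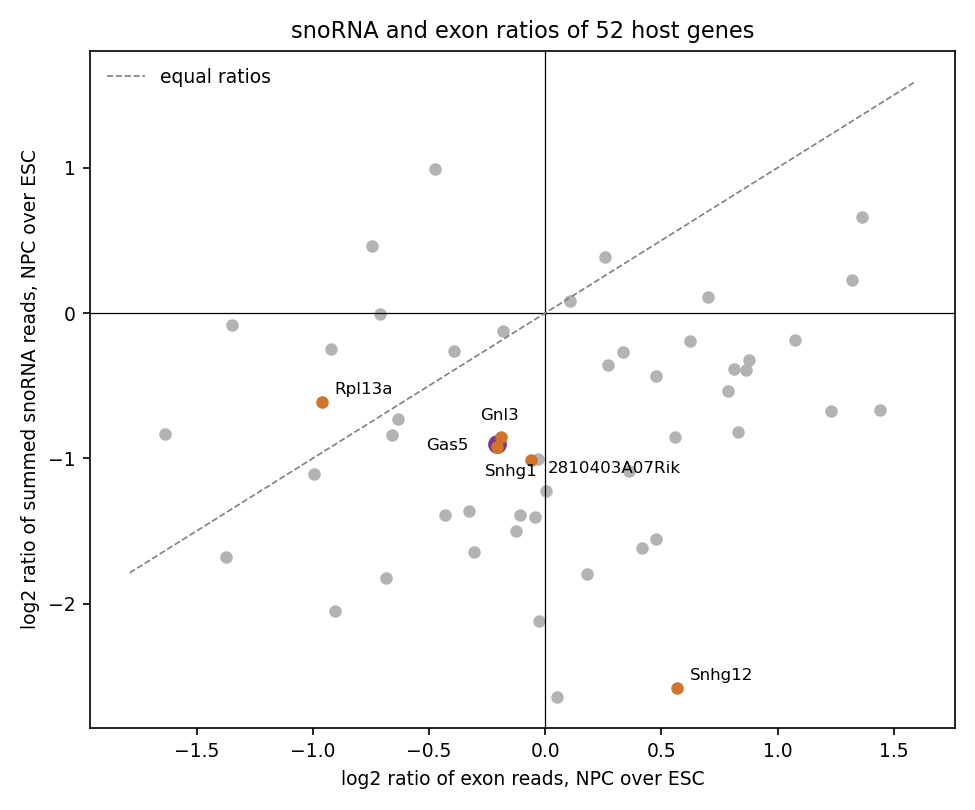
Log2 ratio of NPC to ESC for the summed snoRNA reads (y axis) against that for the exon reads (x axis) of 52 host genes, 1 point per gene, with *Gas5* in purple, named hosts in orange and equal ratios on the dashed line. *Gas5* lies at −0.21 and −0.90, next to *Snhg1* and *Gnl3*, within the cloud of other hosts.

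Genes of the proteins that bind, assemble or release C/D snoRNAs differed in direction. Among the 4 core proteins, counted outside the snoRNAs that some of these genes hold themselves, 3 were higher in NPCs and 1 was lower, with a median log2 ratio of 0.36, which lies 0.02 above the all-gene median. *Nop58* had 340 reads in ESCs and 737 in NPCs (log2 ratio 1.07), *Nop56* had 667 and 832 (0.28), and *Fbl*, the methyltransferase fibrillarin, 304 and 424 (0.44). *Nhp2l1*, which encodes the 15.5K protein that binds the C and D boxes, had 142 and 127 reads, with an interval of the ratio that included 1 (0.678 to 1.11).

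Of the 7 assembly factors 5 were higher and 2 lower in NPCs, with a median log2 ratio of 0.46, while their summed level went from 382 to 256.4 RPM. *Ruvbl2*, an ATPase of the R2TP complex, was the one past 2-fold, with 1052 reads in ESCs and 435 in NPCs (ratio 0.401, 0.358 to 0.449), whereas its partner *Ruvbl1* had 130 and 207. *Dbr1*, the enzyme that opens intron lariats, had 79 and 104 reads (ratio 1.28, 0.945 to 1.73).

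Factors of nonsense-mediated decay, of which the spliced *Gas5* RNA is a known substrate, were higher in NPCs for 7 of 8 genes, none past 2-fold, with a median log2 ratio of 0.59. *Upf1*, the central helicase, had 193 and 310 reads (ratio 1.56, 1.3 to 1.88). Set against the all-gene median, the list lay at 0.25.

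*Nr3c1*, the glucocorticoid receptor, had 154 reads in ESCs and 152 in NPCs (ratio 0.958, 0.761 to 1.21). Its known targets were mixed, with *Sgk1* (780 and 313 reads, log2 ratio −1.36) and *Fkbp5* (402 and 198, −1.06) lower and *Tsc22d3* (11 and 27, 1.25) higher by more than 2-fold, and with *Dusp1* and *Per1* on either side of 1. Among the other growth arrest-specific genes, which share a name with *Gas5* but not a function, *Gas2* (57 and 28 reads) and *Gas7* (44 and 19) were lower and *Gas1* (4 and 20) and *Gas8* (3 and 27) higher by more than 2-fold, and *Gas6* had 61 and 35 reads. These are counts of NPA RNA and do not give the level of the polyadenylated mRNAs.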

How the data were processed

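NPA RNA of ESCs and NPCs was sequenced on a SOLiD instrument, 1 library each. Library preparation used 2 µg of RNA, fragmentation with RNase III, a gel cut at 150 to 250 bp and 15 cycles of PCR. Per the labels and the study's methods, the authors aligned the reads to mm9 with Bowtie (version not given in the sources used here) without requiring a unique placement, and filtered out mitochondrial, ribosomal and repeat reads. The deposited files hold 1 placement per read, with start, end, strand and 48 nt of sequence.

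Reads on the strand of *Gas5* were assigned by an overlap of at least 1 base, first to snoRNAs, then to exons of the transcript with the most exons, then to introns. Other genes were counted over all their exons, and the listed genes without reads of small RNA genes inside them. RPM uses the deposited read totals. Counts have exact Poisson, shares Clopper-Pearson and ratios conditional binomial 95% intervals. With 1 library per group no test was made, and a count of 0 was taken as up to 3 reads. More than 2-fold was asked of genes with at least 10 reads. Named genes are all members, the lists given above, 3 comparison hosts and the 3 hosts nearest in both log2 ratios. The members and lists were chosen with earlier results of these data known. The assignment and intervals were tested on simulated data. Alternatives changed the treatment of repeated starts, the scaling, the assignment, the uniqueness of reads and the exon model. The tiling arrays were not analysed here, and values of some listed genes are not reported here. Software was pysam 0.24.0, numba 0.67.0, SciPy 1.17.1 and NumPy 2.4.6 under Python 3.11.15, with figures from matplotlib 3.10.9.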

Additional observations from a re-analysis of the deposited data

How the results depend on the processing

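Of the 9 members, 8 were lower in NPCs under each alternative but one, and 9 when each start was counted once. The log2 ratio of the summed snoRNAs, −0.90, became −0.43 with each start counted once, −1.01 when scaled without the 10 largest read clusters, and −1.24 when scaled by the median of all genes. With each start counted once, the number of snoRNAs more than 2-fold apart went from 7 to 0, and the log2 ratio of SNORD78 from 1.69 to −0.27. The exon log2 ratio of −0.21 became −1.36 on the 5 and 2 reads lying within 1 exon, an alternative added after seeing the data, and the intron value of −0.26 became 0.095 with reads whose deposited sequence occurs once in mm9, which leaves out reads that differ from mm9. The snoRNA reads per exon read, 588 in ESCs and 363 in NPCs, became 4.67 and 4.31 with each start counted once, 996 and 787 by the 5′ end, 160 and 101 with the exons of all transcripts joined, and 6582 and 9068 with reads within 1 exon. The joined exons cover 3760 of 4118 nt and leave no intron value. The other 62 values of sums and counts, and 82 of 99 for single snoRNAs, moved by less than the counting interval, or by less than 1.5 times for counts. Part of these could not move, so their number does not measure stability. Exon settings leave snoRNA counts as they are, and scaling leaves ratios within a library as they are. Asking that the mm9 sequence at the placement occur once removed no read. The intron interval lay below 0 under 5 alternatives, with log2 ratios from −0.60 to −0.29. No paired analysis was possible because each cell type has 1 library. Counts as low as those of SNORD78 and the exons limit what these libraries can show.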
